A study of Drosophila melanogaster with 42 samples.

Results

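The Enhancer of split complex is a row of neighbouring genes on chromosome arm 3R of Drosophila melanogaster, and 7 of them encode basic helix-loop-helix (bHLH) repressors: E(spl)mdelta-HLH, E(spl)mgamma-HLH, E(spl)mbeta-HLH, E(spl)m3-HLH, E(spl)m5-HLH, E(spl)m7-HLH and E(spl)m8-HLH. Their chromatin accessibility was followed in fruit fly embryos across the first hours of development. The members are the tested regions whose midpoint lay inside one of these genes or within 5 kb of it, each given to the nearer gene. The rule used position and no measured value. It took 10 of the 20935 regions of 2114 bp that the deposited tables hold, at least 1 for each of the 7 genes.

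These repressors belong to the Hairy-related family and are classic targets of the Notch pathway. When a ligand such as Delta on one cell engages the receptor Notch on its neighbour, the released Notch fragment joins the DNA-binding protein Suppressor of Hairless, and together they switch on the complex. The bHLH proteins recruit the corepressor Groucho, whose gene gro lies at one end of the complex, and hold down proneural genes, so that fewer cells of the neuroectoderm become neuroblasts. Between the bHLH genes lie genes of the Bearded family (E(spl)malpha-BFM, E(spl)m2-BFM, E(spl)m4-BFM and E(spl)m6-BFM), which are also Notch targets and dampen ligand signalling.

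ATAC-seq, in which the transposase Tn5 inserts adapters into open DNA, was done on 42 libraries in 14 groups of 3. Embryos labelled zld- and gd7 were collected in 4 windows of 30 min, starting with 1-1.5 h after egg laying and followed by 1.5-2 h, then 2-2.5 h and last 2.5-3 h, embryos labelled cic6 in the last pair of these windows, and wild-type OreR (Oregon-R) embryos at all 4 windows. The zld gene encodes Zelda, a maternal pioneer factor that opens chromatin in the early embryo. The gd gene is needed in the mother for the nuclear gradient of Dorsal, which patterns the back-to-belly axis, and cic encodes Capicua, a repressor relieved by receptor tyrosine kinase signalling. The labels say neither how zld- embryos were obtained nor which parent carried the gd7 or cic6 allele, and the names of the deposited zld- files refer to RNAi and depletion. Each library pooled whole, hand-sorted embryos, 400 of them for the earliest window, 100 for the next and 40 for each of the others. The files tie no library to a separate cage or culture, so p-values below measure the spread between libraries, which may in part be technical. In whole embryos, fewer nuclei with an open site and a site less open in every nucleus cannot be told apart.

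The depth per library is unknown, and the length of a peak list is the only sign of it. Lists held 37303 to 58137 peaks in the windows from 1.5 h on, except for 1 gd7 list of 36276 peaks. At 1-1.5 h the 3 zld- lists were 21324, 41668 and 6831 peaks long, against 38663 to 42882 in OreR, and the gd7 lists 29989 to 38767. Peak numbers and covered lengths of zld- in that window rest on these uneven lists. The fold changes in the tables come from counts in regions that are the same for all libraries, and the part of that window's libraries in them was not tested. Accessibility at a mutated gene is no measure of its product, so the genotype labels were not checked by these data.

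In the order along 3R, given here in Release 6 (dm6) coordinates, the regions are called R1 to R10. R1 (3R:25995893-25998006) has its midpoint 672 bp from mdelta, inside CG43116. R2 (3R:25998787-26000900) is centred 8 bp from mgamma, and R3 (3R:26001507-26003620) 1802 bp beyond it on the other side. R4 (3R:26005197-26007310) is centred 230 bp from mbeta. R5 (3R:26009781-26011894) is 4814 bp from mbeta, the farthest the rule took in, and sits beside the Bearded family gene malpha. R6 (3R:26016783-26018896) is 3984 bp from m3 and beside m2. R7 (3R:26023026-26025139) is 955 bp from m3, overlaps both m3 and m4, and has its midpoint inside m4. R8 (3R:26029203-26031316) is 524 bp from m5, R9 (3R:26034973-26037086) 1009 bp from m7, and R10 (3R:26039919-26042032) has its midpoint inside m8 and also overlaps gro. The next tested region, at gro, is 6900 bp from m8 and falls outside the rule. Named enhancers are attached to 8 of the 10 regions in the zld- table, among them malpha_PNC at R5, m4_HZm4 at R7 and m5_DE at R8. In the gd7 table they are attached to R10 alone.

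**Figure D1:**
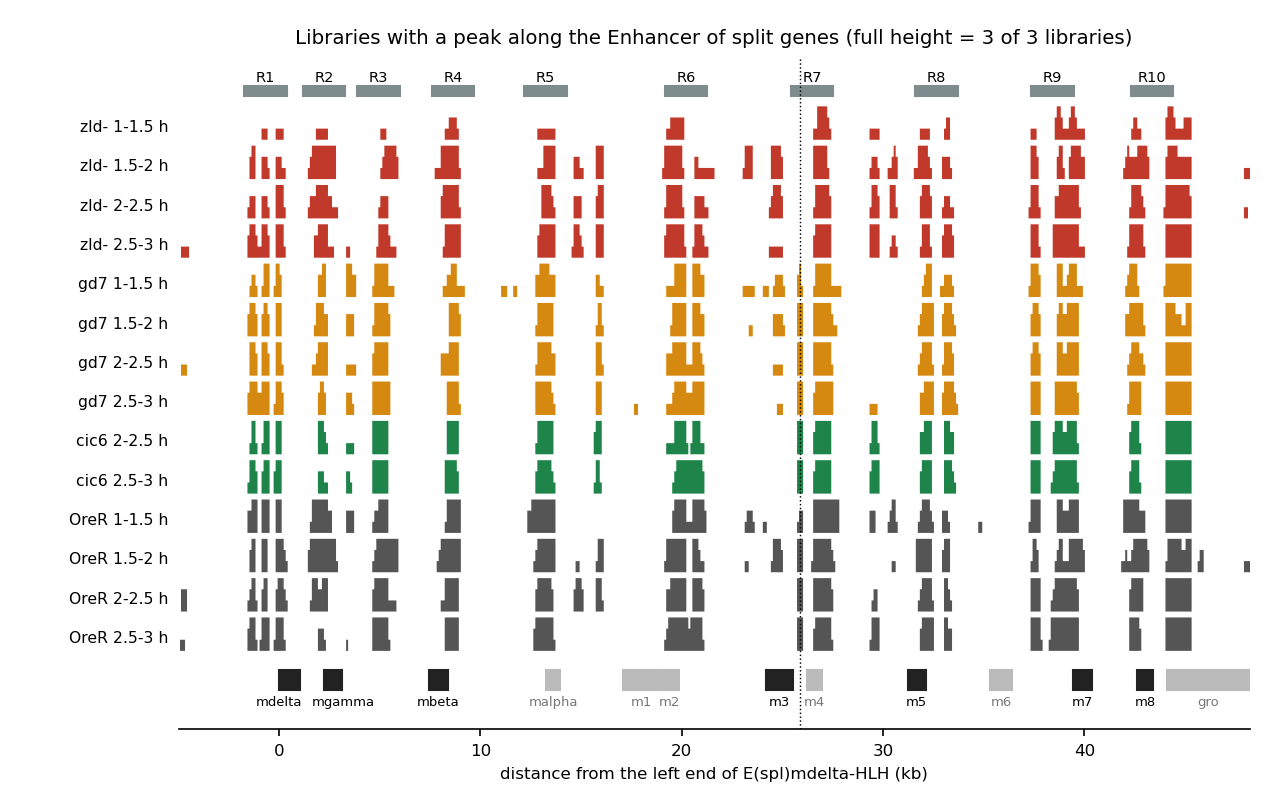
Peaks along the complex, as the number of the 3 libraries of each group that list a peak (height of each band, full height 3 of 3), against the distance in kb from the left end of E(spl)mdelta-HLH. Grey bars at the top are the 10 tested regions, black boxes the bHLH genes and light boxes other genes of the complex. The dotted line marks a site between m3 and m4 that was listed in 0 of 12 zld- libraries and in 11 of 12 OreR libraries.

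All 10 regions at the bHLH genes lost accessibility in zld- embryos of 1-1.5 h, and a block in the middle of the complex stayed low at all later ages. The neighbouring region at gro, outside the rule, did not (0.04 in that window in the authors' deposited table). In the authors' deposited table, 10 of 10 regions were called lower than OreR at 1-1.5 h (adjusted p under 0.05; DESeq2, per the submitters' processing notes), where 15.6% of all tested regions were, and 0 were called higher in any window. The other direction was called at 10.4%, 4.66%, 7.82% and 14.0% of all regions in the 4 windows. Over all windows, 27.5% of all regions were called lower in at least 1. The count called lower was 4 of 10 at 1.5-2 h, 5 of 10 at 2-2.5 h and 5 of 10 at 2.5-3 h, beside 7.49%, 13.4% and 17.1% of all regions. The median log2 fold change of the 10 regions was -1.36, -0.08, -0.37 and -0.35 in the 4 windows in the authors' deposited table, while that of all regions lay between -0.01 and 0.04. R5, R6, R7 and R8, which span malpha to m5, were the 4 regions called lower in every window, as were 4.31% of all regions. Without the first window, 5 of 10 regions were called lower in at least 1 window, R3 being the fifth.

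From 1.5 h on the deepest loss lay at R7, which overlaps m3 and m4. Its log2 fold change in the authors' deposited table was -1.82 (SE 0.21, adjusted p 1.84e-15) at 1-1.5 h, -1.53 (SE 0.21, adjusted p 2.72e-11) at 1.5-2 h, -1.69 (SE 0.21, adjusted p 4.35e-14) at 2-2.5 h and -1.35 (SE 0.21, adjusted p 2.6e-09) at 2.5-3 h. As ratios these are 0.283, 0.347, 0.310 and 0.394 of the OreR level in the authors' deposited table. R7 was the lowest of the 10 in each window except the first, in which R5 was lower. Among all tested regions R7 stood at percentile 0.201 in the first window and 1.46 in the last.

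The peak lists show the same stretch in single libraries. In zld- embryos, peaks covered 568, 839 and 466 bp of R7 at 1-1.5 h, 785, 769 and 631 bp at 1.5-2 h, 849, 827 and 671 bp at 2-2.5 h, and 881, 929 and 889 bp at 2.5-3 h. In OreR embryos they covered 1002, 1287 and 1278 bp, then 1377, 1302 and 1167 bp, then 1318, 1133 and 1259 bp, and finally 1256, 1230 and 1101 bp. Every zld- library lay below every OreR library in all 4 windows. R7 was the only member of which this was true, and it was true of 2.16% of all tested regions. No member had such a separation in gd7 or cic6, where 1.13% and 9.58% of all regions had it in the lower direction and 0.167% and 0.717% in the higher one (0.0430% in zld-).

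Within R7, one of a pair of neighbouring peaks was missing in zld-. The site with its median summit at 3R:26023470, 343 bp from m3 and between m3 and m4, carried a peak in 0 of 12 zld- libraries. The same site had a peak in 12 of 12 gd7 libraries, 6 of 6 cic6 libraries and 11 of 12 OreR libraries. The larger neighbouring site, with its median summit at 3R:26024696 and 117 bp beyond m4, had a peak in 12 of 12 zld- libraries and in every library of the other genotypes. These sites were singled out after their values were seen, so they are a description with no test. In the complex, 21 sites were frequent in OreR (peaks in at least 10 of 12 libraries), and this was the 1 site among them that was rare in zld- (at most 2 of 12). Genome-wide 2.43% of such sites were, so the count for the complex is near the background. For gd7 the count was 0 of 21 (1.60% genome-wide), and for cic6 0 of 24 (at least 5 of 6 OreR and at most 1 of 6 cic6 libraries, 4.89% genome-wide).

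R5, beside malpha, had log2 fold changes of -1.92 (SE 0.18), -0.58 (SE 0.17), -1.03 (SE 0.17) and -1.20 (SE 0.17) in the 4 successive windows in zld- in the authors' deposited table, with adjusted p of 4.02e-25, 0.00981, 3.88e-08 and 5.92e-11. In the first window 1 of 3 zld- lists had a peak there, of 840 bp, against 1176, 1394 and 1459 bp in OreR. At 2-2.5 h the peak covered 483, 657 and 619 bp in zld- and 980, 782 and 827 bp in OreR, with no overlap between the groups, as at 19.9% of all tested regions in that window. At 2.5-3 h it covered 839, 862 and 901 bp in zld- and 1001, 1021 and 872 bp in OreR, and the groups overlapped, while the fold change there was called lower.

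R6, beside m2 on the m3 side, was at -1.66 at 1-1.5 h, -0.41 at 1.5-2 h, -0.72 at 2-2.5 h and -0.96 at 2.5-3 h in zld- in the authors' deposited table (SE 0.11 to 0.12). R8, beside m5, had -1.19 (SE 0.15), -0.45 (SE 0.14), -0.64 (SE 0.14) and -0.45 (SE 0.14) in the authors' deposited table, called lower in all 4. R3, beyond mgamma, was -1.43 and called lower in the first window, -0.17 and not called in the second, and -0.47 and -0.38 and called lower in the last pair, with SE of 0.11 to 0.12 in the authors' deposited table. A position in R3, 1566 bp from mgamma, was covered by a peak in 0 of 12 zld- libraries, 11 of 12 gd7 libraries, 6 of 6 cic6 libraries and 9 of 12 OreR libraries. Only 4 summits lay there over all libraries, against 35 at the neighbouring site 2027 bp from mgamma. Most of these peaks therefore reached the position with their flank and were not separate peaks.

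The remaining 5 regions, to either side of R5 to R8, were called otherwise. R3, called lower again from 2 h on, lies between R2 and R4 and is not among them. Regions were not tested against each other. In the authors' deposited table R8 was at -0.45 (SE 0.14, called) and R9 at -0.32 (SE 0.22, not called) at 2.5-3 h. R1 at mdelta, R2 at mgamma, R4 at mbeta, R9 at m7 and R10 at m8 were called lower in zld- only at 1-1.5 h, with log2 fold changes of -1.30, -1.49, -1.24, -0.89 and -0.61 in the authors' deposited table. From 1.5 h on these 5 regions lay between -0.32 and 0.18 in the authors' deposited table and none passed the test. R2, which adjoins mgamma, a gene also known for its expression in larval neuroblasts, had 0.06, 0.05 and 0.18 (SE 0.14 each) in the later windows in that authors' deposited table. R10 at m8, the gene altered in the original dominant Enhancer of split mutation, had 0.11, 0.01 and 0.04 (SE 0.20 each) there in the authors' deposited table. Peaks beside m7, 61 and 646 bp from the gene, and one inside gro within R10 were listed in 12 of 12 zld- libraries, also in the short first-window lists.

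**Figure D2:**
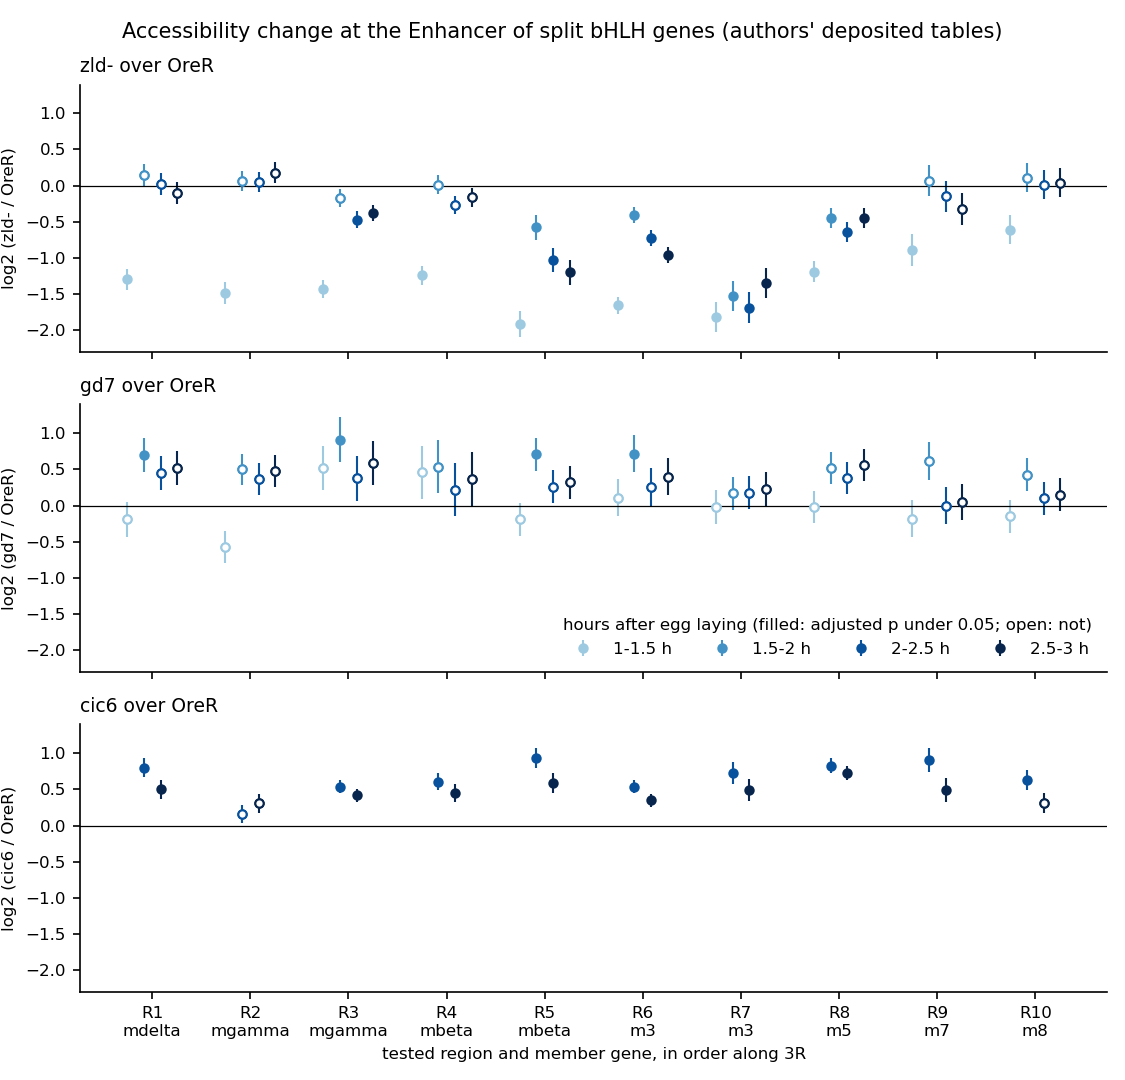
Log2 fold change over OreR at each of the 10 regions, from the authors' deposited tables, with 1 SE either side, for zld-, gd7 and cic6; shades run from the first to the last window, filled points were called at an adjusted p under 0.05 and open points were not. In zld- all 10 points of the first window are below 0, while later the low points are those of R5 to R8 and, to a lesser degree, R3; in cic6 all points are above 0.

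The change in zld- differed between the last and the first window at 7 of 10 regions by a Wald test that subtracts one deposited log2 fold change from the other (Benjamini-Hochberg adjusted over all regions), all 7 upward, as for 5.44% of all regions. The difference, 2.5-3 h minus 1-1.5 h, was largest at R2 at mgamma with 1.67 (SE 0.21, adjusted p 8.07e-13). It did not pass at R7 (0.48, SE 0.30, adjusted p 0.373), R9 (0.57, SE 0.31, adjusted p 0.28) and R10 (0.65, SE 0.28, adjusted p 0.126), nor at R5 once the trend of fold change with mean count was removed (adjusted p 0.151). The 7 calls rest on the first window: set against 1.5-2 h, the last window differed at 1 region, R6, which was lower by then (-0.55, SE 0.16, adjusted p 0.0264). That second contrast was chosen after the data had been seen. In gd7 the last and the first window differed at 0 of 10 regions by the same test (2 at an unadjusted p under 0.05), where 0.793% of all regions fell and 0.306% rose.

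In gd7 embryos the measured changes were at or above 0 from 1.5 h on, but few regions passed the test. In the authors' deposited table, 4 of 10 regions were called higher than OreR at 1.5-2 h, beside 7.86% of all regions, and these were the only members called higher over all windows (12.6% of all regions), with 0 in the other windows (4.47%, 2.09% and 3.81% of all regions higher) or lower in any window (4.01%, 7.47%, 3.45% and 8.19%). The 4 were R1 at mdelta (0.70, SE 0.24, adjusted p 0.0335), R3 beyond mgamma (0.91, SE 0.31, adjusted p 0.0273), R5 at malpha (0.71, SE 0.23, adjusted p 0.024) and R6 at m2 (0.72, SE 0.26, adjusted p 0.042) in the authors' deposited table. In the same window peaks covered less of R3 in gd7 (769 to 858 bp) than in OreR (1066 to 1291 bp). At R1, R5 and R6 the covered lengths of the groups overlapped. R3 was not alone, as peaks in gd7 also covered less of 3 regions that were not called. These were R2 (413 to 669 bp against 1390 to 1415 bp in OreR), R4 (557 to 658 bp against 1004 to 1127 bp) and R10 (1009 to 1088 bp against 1157 to 1224 bp). The share of all regions so separated in that window alone was not computed for gd7. Over all 4 windows it was 1.13%. Medians over the 10 regions were -0.08, 0.58, 0.26 and 0.39 in the 4 windows in the authors' deposited table, against -0.01 to 0.03 over all regions. At an unadjusted p under 0.05 in the authors' deposited table there were 1 lower, 7 higher, 0 and 3 higher of the 10 in the 4 windows. R7, the region lowest in zld-, was at -0.02, 0.17, 0.18 and 0.23 (SE 0.23 each) in gd7 in the authors' deposited table and passed in no window. Standard errors at the members were larger in gd7, with a median of 0.24 against 0.13 in cic6 and 0.15 in zld- in the authors' deposited tables.

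In cic6 embryos the measured fold changes over OreR were above 0 at all 10 regions, and most passed the test. In the authors' deposited table, 9 of 10 regions were called higher at 2-2.5 h and 8 of 10 at 2.5-3 h, beside 26.2% and 14.0% of all regions, 9 of 10 in at least 1 window (28.4%), and none was called lower (22.8% and 13.7% of all regions). R5 at malpha had the largest value at 2-2.5 h, 0.94 (SE 0.14, adjusted p 8.99e-10), a ratio of 1.92 to the OreR level in the authors' deposited table. R8 at m5 had the largest at 2.5-3 h, 0.73 (SE 0.10, adjusted p 8.93e-12), after 0.83 (SE 0.10, adjusted p 7.91e-15) at 2-2.5 h in the authors' deposited table. R9 at m7 was at 0.91 (SE 0.17) and 0.49 (SE 0.17), and R1 at mdelta at 0.80 and 0.50 (SE 0.13 each), in the authors' deposited table, and both were called in both windows. R2 at mgamma was the exception in both windows, with 0.16 (SE 0.13, adjusted p 0.308) and 0.31 (SE 0.13, adjusted p 0.0652) in the authors' deposited table. R10 at m8 was called at 2-2.5 h (0.63, SE 0.14) and not at 2.5-3 h (0.31, SE 0.14, adjusted p 0.0838) in the authors' deposited table. The peak lists of 2-2.5 h gave no such gain. Peaks then covered 537 to 549 bp of R4 in cic6 and 660 to 875 bp in OreR, and 855 to 911 bp of R10 against 984 to 1022 bp. At the other regions called higher in that window the groups overlapped. R2, which was not called, was also apart, with 350 to 435 bp in cic6 and 515 to 892 bp in OreR. The share of all regions so separated at 2-2.5 h alone was not computed for cic6. Over both cic6 windows it was 9.58% of all regions, with no member among them. Why covered length and fold change went apart was not tested. No region's change differed between the cic6 windows by the Wald test (0 of 10 at an adjusted and at an unadjusted p under 0.05), where 0.115% of all regions fell and 0.0334% rose.

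**Figure D3:**
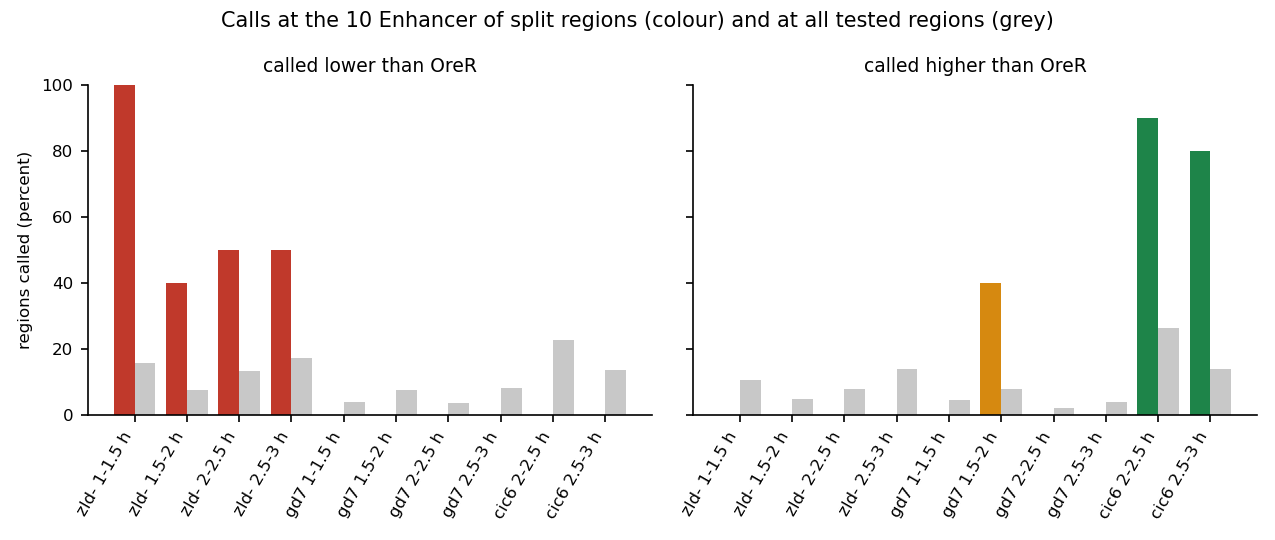
Share of the 10 Enhancer of split regions (coloured bars: red zld-, orange gd7, green cic6) and of all tested regions (grey bars) called lower, left, and higher, right, than OreR at an adjusted p under 0.05 in the authors' deposited tables, in percent. The coloured bars stand at 100% for zld- at 1-1.5 h on the left and at 90% and 80% for cic6 on the right, beside grey bars of 15.6%, 26.2% and 14.0%.

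The members are among the strongly covered regions of the tables, and in each table the fold change of all regions ran with their mean count. Their mean normalized counts in the authors' deposited tables were 1455 to 3082 in the zld- table, where the median region had 770, 2000 to 4750 in the gd7 table (median 892) and 1375 to 5786 in the cic6 table (median 873). When the trend with mean count was removed by a smooth curve, 8, 4, 5 and 5 of 10 regions were called lower in zld- in the 4 windows. R9 at m7 and R10 at m8 were the pair no longer called at 1-1.5 h. After the same step no region was called higher in gd7, and R2 at mgamma was called lower at 1-1.5 h. In cic6 the count called higher was then 3 of 10 in each window, with a median of 0.19 and 0.26 in place of 0.68 and 0.47. R1 at mdelta (0.41 and 0.35) and R8 at m5 (0.34 and 0.54) were called in both windows after trend removal, R5 at malpha (0.37) in the first and R3 beyond mgamma (0.29) in the second. Whether the trend is part of the biology or of the measurement was not tested. R7 in zld- remained at -1.43, -1.68, -1.71 and -1.17 with the trend removed, called lower in all 4 windows.

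**Figure D4:**
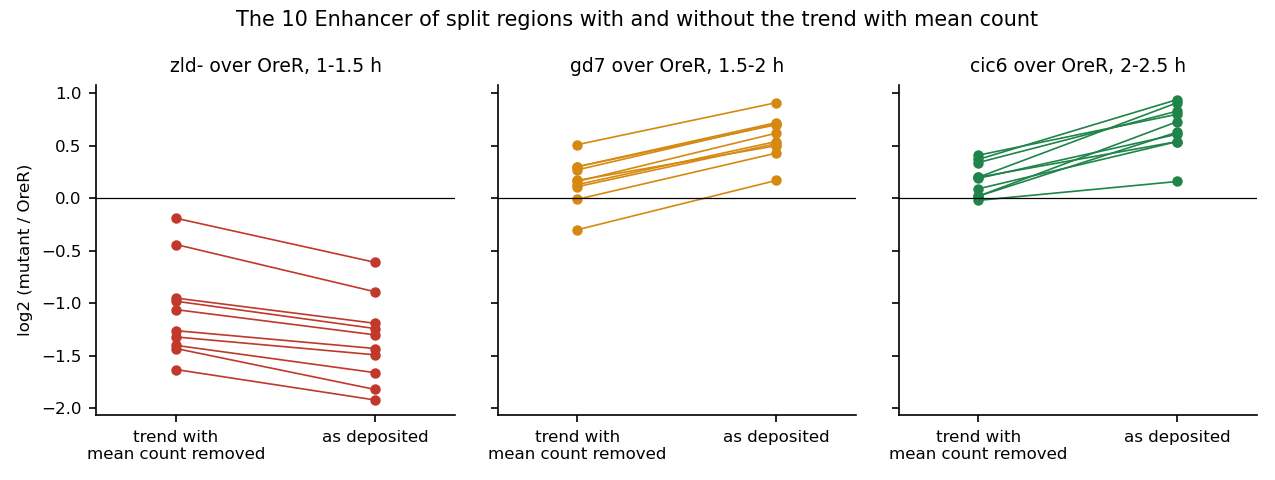
Log2 fold change over OreR of the 10 regions in zld- at 1-1.5 h, gd7 at 1.5-2 h and cic6 at 2-2.5 h, each line joining a region's value with the trend of all regions with mean count removed (left) and its value as in the authors' deposited tables (right). The zld- points stay below 0 in both columns, while the median of the cic6 points is 0.19 on the left and 0.68 on the right and that of the gd7 points 0.17 and 0.58.

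The genotypes were then set against each other in the same windows, by the Wald test of the difference between their deposited log2 fold changes. They share the OreR libraries, which makes the error of the difference too large. The change in zld- was below that in gd7 at 8 of 10 regions at 1-1.5 h, and at 5, 4 and 5 of 10 in the later windows, beside 7.59%, 5.23%, 6.51% and 7.95% of all regions. It was below that in cic6 at 9 of 10 regions at 2-2.5 h and 8 of 10 at 2.5-3 h, beside 16.6% and 14.7% of all regions. R5, R6, R7 and R8 passed in all 6 of these contrasts. With the trend removed the counts against gd7 were 6, 2, 4 and 4 of 10 and those against cic6 6 and 5 of 10, and at 1.5-2 h R6 (adjusted p 0.0527) and R8 (adjusted p 0.11) no longer passed against gd7. At R7 the change in zld- minus that in gd7 was -1.80, -1.70, -1.86 and -1.58 (SE 0.31 each) in the 4 windows, and the change in zld- minus that in cic6 was -2.42 and -1.84 (SE 0.26 each). At R2 beside mgamma the difference from cic6 was -0.11 (SE 0.19) and -0.13 (SE 0.19) and did not pass. The change in cic6 was above that in gd7 at 1 region, R9 at m7, at 2-2.5 h (0.91, SE 0.31, adjusted p 0.0477, beside 3.89% of all regions), and with the trend removed at none. At 2.5-3 h the count was 0 of 10 by this test, beside 3.65% of all regions, at an unadjusted p under 0.05 as well.

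Peaks were also counted around the complex, over all 7 bHLH genes with 5 kb on each side (47589 bp in all). In zld- libraries 9, 15 and 5 peaks were listed at 1-1.5 h, 21, 22 and 17 at 1.5-2 h, 19, 19 and 15 at 2-2.5 h and 20, 18 and 17 at 2.5-3 h. In OreR libraries there were 21, 19 and 20, then 18, 22 and 23, then 18, 20 and 18, and finally 18, 16 and 19. The groups were apart in the first window and overlapped in the later ones. Averaged over windows, zld- libraries had 16.4 peaks and OreR libraries 19.3, a difference of -2.92 with p = 0.0536 in a two-sided exact permutation test within windows, adjusted over the 3 mutants 0.161. Without 1-1.5 h the difference was -0.444 peaks (exact permutation p = 0.72), and without zld- replicate 3 it was -1.46 (exact permutation p = 0.324). Other alternatives went the other way. Before adjustment the difference passed with all lists cut to 6831 peaks, with a −log10 q of at least 5, and without zld- replicate 1 or 2. The gd7 libraries differed by -0.667 peaks (18.7 against 19.3, exact permutation p = 0.382, adjusted 0.572) and cic6 libraries by -0.167 (18 against 18.2, exact permutation p = 1).

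The length covered by peaks was smaller on average over the windows in each mutant, by tests that several alternatives ended. It averaged 10205 bp in zld- and 12728 bp in OreR, a difference of -2524 bp (exact permutation p = 0.0198, adjusted over the 3 mutants 0.0297, below the OreR mean of the window in 8 of 12 libraries). By window the zld- difference was -8452, -1481, -596 and 434 bp, and without 1-1.5 h its mean was -548 bp (exact permutation p = 0.388). In gd7 the mean was 11516 bp against 12728 bp in OreR, a difference of -1213 bp (exact permutation p = 0.0151, adjusted 0.0297, below in 9 of 12 libraries), with -2377, -2330, -237 and 93.3 bp by window and -825 bp without 1-1.5 h (exact permutation p = 0.0545). In cic6 it was 11007 bp against 11916 bp in the OreR libraries of both windows, a difference of -910 bp (exact permutation p = 0.04, adjusted 0.04, below in 5 of 6 libraries). With a replicate block the zld- and cic6 differences no longer passed (exact permutation p = 0.0562 and 0.0625), nor did they without any one of the OreR replicates. With lists of equal length those of gd7 (-730 bp, exact permutation p = 0.108) and cic6 (-729 bp, exact permutation p = 0.095) did not pass. With 3 libraries against 3, no single window can go below p = 0.1 in this exact test. The number of peaks did not pass a test of difference between the OreR windows (SD of the window means 1.47 peaks, exact permutation p = 0.161). Those windows also differ in the number of embryos pooled.

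**Figure D5:**
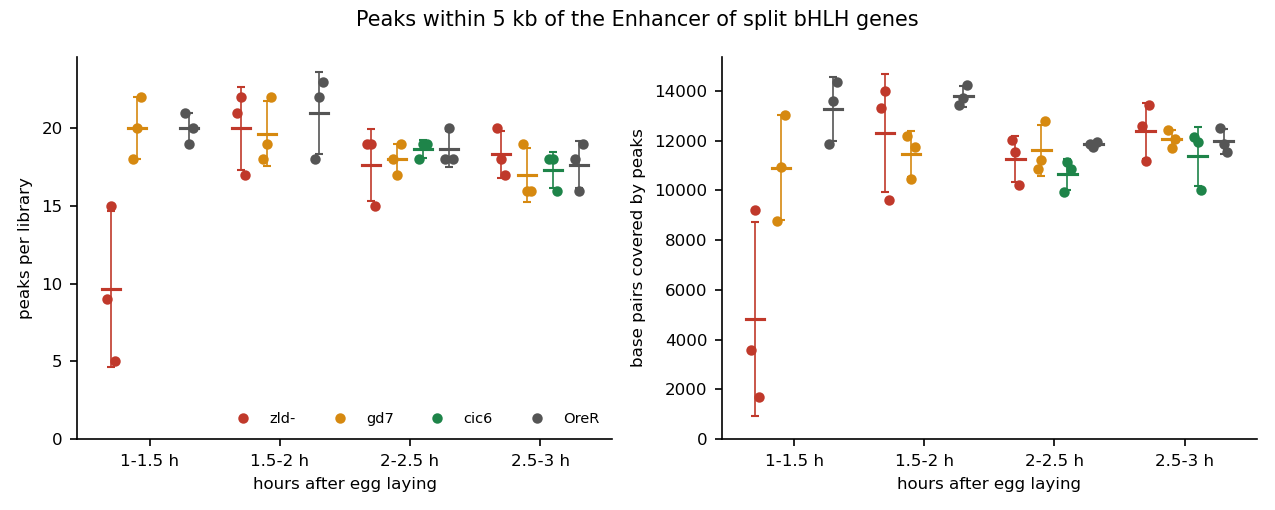
Peaks per library (left) and base pairs covered by peaks (right) within 5 kb of the Enhancer of split bHLH genes, by hours after egg laying; points are libraries, bars the mean with 1 SD (n = 3). The zld- libraries of 1-1.5 h lie lowest, with 9, 15 and 5 peaks and 3565, 9228 and 1711 bp; from 2 h on the mutant libraries overlap those of OreR, except that all 3 cic6 libraries of 2-2.5 h cover less than every OreR library of that window.

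Several other sites around m2, m3 and m5, most of them outside the tested regions, had a peak in some libraries and not in others. The cic6 libraries cover the last pair of windows alone, so the OreR count of those windows is given with them. A site 683 bp from m5 had a peak in 8 of 12 zld- libraries, 0 of 12 gd7 libraries, 0 of 6 cic6 libraries and 4 of 12 OreR libraries, and 3 of these 4 OreR libraries were of 1-1.5 h, with 0 of 6 in the last pair of windows. Another, 1721 bp from m5, had one in 9 of 12 zld- libraries, 1 of 12 gd7 libraries, 6 of 6 cic6 libraries and 7 of 12 OreR libraries (5 of 6 in the last pair of windows). The body of m3 carried a site at 3R:26022163 with a peak in 7 of 12 zld-, 4 of 12 gd7, 0 of 6 cic6 and 3 of 12 OreR libraries (0 of 6 in the last pair of windows). The site in R6 275 bp from m2 lacked a peak in zld- libraries alone: it had one in 5 of 12 zld- libraries, 3 of these at 2.5-3 h, and in every library of the other genotypes. None of the 46 sites was gained by the rule of a peak in at least 10 of 12 mutant libraries (5 of 6 for cic6) and at most 2 of 12 in OreR (1 of 6), whereas genome-wide the share of frequent mutant sites gained was 0.812% for zld-, 0.929% for gd7 and 2.56% for cic6. All these sites were seen first and are given without a test.

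The other genes around the bHLH repressors were described by lists of genes, with the share of all tested regions beside each count. The Bearded family genes, the gene m1 and gro had 9 tested regions, of which 7 are members already described. The 17 genes of the Notch pathway had 82 tested regions within 5 kb, with 25, 5, 10 and 18 called lower in zld- in the 4 windows in the authors' deposited table. These are 30.5%, 6.1%, 12.2% and 22% of the list, beside 15.6%, 7.49%, 13.4% and 17.1% of all regions. The shares from 1.5 h on lie near the background. In the other direction there were 3, 4, 5 and 6 of 82, beside 10.4%, 4.66%, 7.82% and 14.0% of all regions. In cic6, 37 of the 82 were called higher and 7 lower at 2-2.5 h (26.2% and 22.8% of all regions), and 20 higher and 2 lower at 2.5-3 h (14.0% and 13.7%). The authors' deposited table for gd7 had 8 higher and 1 lower at 1.5-2 h (7.86% and 7.47% of all regions). The higher count is 9.76% of the list and so lies near the background. The largest change in zld- at Dl, which encodes the ligand Delta, was -1.57 (SE 0.20) at 2.5-3 h, and at N, the receptor, -1.13 (SE 0.29) at 2.5-3 h in the authors' deposited table. At neur, a ubiquitin ligase that the Bearded proteins bind, it was -1.65 (SE 0.21) at 1-1.5 h, and at numb, an inhibitor of Notch in dividing cells, -1.54 (SE 0.23) at 2-2.5 h in the authors' deposited table. At Su(H), the DNA-binding partner of Notch, it was -0.83 (SE 0.15) at 2.5-3 h in the authors' deposited table, and these losses passed the test. Losses at fng, kuz, mib1 and nct passed as well. The largest change was a gain that passed at H, which encodes the antagonist Hairless (0.42, SE 0.15, at 1.5-2 h), and at Ser (0.52, SE 0.11, at 2.5-3 h). At the other genes of the list it did not pass. Medians over the 82 regions in zld- were -0.21, 0.04, -0.01 and -0.10 in the 4 windows, against -0.01, 0.04, 0.02 and -0.01 over all regions.

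The 6 other Hairy-related genes had 16 tested regions, with 6 lower and 1 higher in zld- at 1-1.5 h (15.6% and 10.4% of all regions) and 4 lower and 3 higher at 2.5-3 h (17.1% and 14.0%) in the authors' deposited table. In cic6, 4 of the 16 were called higher and 0 lower at 2-2.5 h (26.2% and 22.8% of all regions). At 2.5-3 h 2 were higher and 2 lower (14.0% and 13.7%). The higher counts, 25% and 12.5% of the list, lie near the background. The list of proneural bHLH genes, da among them, had 12 tested regions at 7 genes. Of these 7, 7, 8 and 8 were called lower in zld- in the 4 windows, beside 15.6%, 7.49%, 13.4% and 17.1% of all regions, and 0 higher, and the authors' deposited table gave medians of -0.54, -1.09, -1.10 and -0.79. At sc the largest change in zld- was -2.01 (SE 0.23) at 1.5-2 h, at ac -1.83 (SE 0.18) at 2-2.5 h and at l(1)sc -1.71 (SE 0.22) at 2-2.5 h in the authors' deposited table. In cic6 9 of the 12 proneural regions were called higher at 2-2.5 h and 1 at 2.5-3 h (26.2% and 14.0% of all regions), and the authors' deposited table for gd7 had 2 lower at 1-1.5 h (4.01%) and 0 called later.

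Over the 10 comparisons the mean profile of the members was -1.35, -0.27, -0.49 and -0.47 in zld-, -0.02, 0.58, 0.26 and 0.37 in gd7, and 0.67 and 0.46 in cic6, as log2 fold changes averaged from the authors' deposited tables. Among 13621 protein-coding genes, the gene with the most similar profile was mav, on chromosome 4, with a root mean square difference of 0.132 on the log2 scale, against 0.588 for the median gene. CG42807 and CG42808, which share their regions, followed with 0.181 each, then tbrd-2 with 0.183 and CG43245 with 0.185. At mav the values were -1.14, -0.31, -0.34 and -0.63 in zld-, -0.03, 0.77, 0.18 and 0.19 in gd7 and 0.64 and 0.41 in cic6 in the authors' deposited tables, from 1 tested region.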

How the data were processed

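Peaks were called by the authors on each library and not on pooled libraries, with Bowtie2 2.3.5.1, Picard 2.23.8 and MACS2 2.2.7.1 named in the submitters' processing notes, on dm6. In each deposited list a peak has a summit, a fold enrichment or ratio, a score, and its p-value and q-value as −log10. Any shift of reads for Tn5 is not given in the sources used here. For each mutant, the deposited table holds the authors' mean of normalized counts (signal after division by size factors), the log2 fold change over OreR with its standard error, and a p-value with its adjusted p-value for each window, from DESeq2 per the submitters' processing notes. The deposited mean was the same in all windows of a table, so 1 fit per mutant covered its windows, and adjusted p-values equalled a Benjamini-Hochberg adjustment within windows to within 2.18e-07. No counts per library come with the tables, so calls were those of the authors, with the threshold at an adjusted p of 0.05, no depth or counting error could be computed, and the labels' replicates entered only through the peak lists.

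From these, regions were assigned by position with a RefSeq gene table of Release 6, which has no strand. All genes of the lists were found; Kaz-m1, hry and Nct were matched through synonyms, and Delta and Sidpn were chosen by hand where a synonym fitted 2 genes. Named were each member's nearest region, any member region past an absolute log2 fold change of 1, and the 5 most alike genes at least 100 kb away. The members and lists were chosen with earlier results of these data known. Peaks overlapping the genes with 5 kb on each side were tested for a difference by exact permutation within windows, two-sided. Differences between windows or mutants were tested by Wald ratios, adjusted over all regions by Benjamini-Hochberg. The trend with mean count was removed by lowess (fraction 0.3). Summits within 150 bp of each other were joined into sites, and a library was counted at a site when one of its peaks covered the site's median summit. The code was tested on simulated data; Python 3.11.15, scipy 1.17.1, pandas 2.3.3 and statsmodels 0.14.6 were used. Alternatives were other distances, thresholds, list lengths, scalings, left-out libraries and windows and a replicate block. Replicate numbers were treated as not pairing the samples, and the file names of OreR and gd7 use numbers that differ from the labels'.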

Additional observations from a re-analysis of the deposited data

Results flagged for a closer look

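The change in zld- differed between 2.5-3 h and 1-1.5 h by the Wald test at 7 regions, with differences of 1.19 at R1 (mdelta), 1.67 at R2 and 1.05 at R3 (mgamma), 1.08 at R4 and 0.73 at R5 (mbeta), 0.69 at R6 (m3) and 0.74 at R8 (m5) on the log2 scale. The zld- lists of the first window were 21324, 41668 and 6831 peaks long, and their part in these differences was not tested. The change differed between zld- and gd7 at 8, 5, 4 and 5 of 10 regions in the 4 windows, between zld- and cic6 at 9 and 8 in the last pair, and between cic6 and gd7 at 1 at 2-2.5 h. A stretch of 5799 bp between the windows around mbeta and m3, at 3R:26011024-26016822, lies farther than 5 kb from every member and was left out of the peak counts. It held a mean of 4 peaks in zld- at 2.5-3 h (4, 4 and 4), against 1, 1 and 2 in OreR, a difference that was not tested. The groups overlapped in the other windows, with 0, 2 and 0 peaks in zld- and 1 in each OreR library at 1-1.5 h, 4, 4 and 3 in zld- and 3, 3 and 4 in OreR at 1.5-2 h, and 3, 4 and 4 in zld- and 3 in each OreR library at 2-2.5 h.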

How the results depend on the processing

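Of 45 calls at named regions, all 45 kept direction and side of the threshold when fold changes were centred on the median; with the trend with mean count removed, 28 did, 17 lost the call and 0 turned. Without the 1-1.5 h window, zld- had 5 regions called lower and 5 that differed from gd7, and against 1.5-2 h the last window differed at 1 region. With an absolute log2 value of at least 1, 4 regions differed between the zld- windows and 0 were called higher in gd7, 0 in cic6, and 0 differed between cic6 and gd7. At an adjusted p under 0.01, 0 were higher in gd7 and 0 differed between cic6 and gd7. With the trend removed, gd7 had 1 lower and 0 higher, cic6 4 higher, and 0 differed between cic6 and gd7; within 2 kb, 2 were higher in gd7. The cause of these losses was not tested.

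For peak numbers, zld- minus OreR was -3.58 (exact permutation p = 0.0469) with a −log10 q of at least 5, -3.42 (exact permutation p = 0.0001) with lists of equal length, and -3.96 to -1.46 with 1 replicate left out, passing without zld- replicate 1 or 2; without 1-1.5 h it was -0.444 (exact permutation p = 0.72). The gd7 difference turned to 0.417 and 0.75 with the same minimum and with equal lists and was -1.21 to -0.333 with 1 left out; cic6 turned to 0.667 and 0.5 there, to 0.5 within 2 kb, and was -0.417 to 0.0833 with 1 left out, none of these passing. The spread of OreR windows was 2.76 (exact permutation p = 0.0197) within 10 kb and 1.31 to 2.1 with 1 left out.

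For covered length the call was lost in zld- within 2 kb (-1499 bp), within 10 kb (-2563 bp) and without 1-1.5 h (-548 bp); in gd7 with a −log10 q of at least 5 (-881 bp), equal lists (-730 bp) and without 1-1.5 h (-825 bp); and in cic6 with a −log10 q of at least 5 (-703 bp), within 2 kb (-506 bp) and with equal lists (-729 bp). With 1 replicate left out the ranges were -3168 to -1794 bp in zld-, lost without each OreR replicate, -1658 to -988 bp in gd7, lost without OreR replicate 3 or gd7 replicate 2, and -1176 to -624 bp in cic6, lost without each OreR replicate or cic6 replicate 3.

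Same-numbered samples deviated together (correlation over 0.1) in 6 of 30 pairs, from -0.13 to 0.19. Pairing was taken to need all pairs over 0.1, so the numbers were treated as not pairing the samples, although 17 of 30 samples correlated best with their own number, where chance gives 10. With the replicate block the covered length differed by -2524 bp in zld- (exact permutation p = 0.0562) and -910 bp in cic6 (exact permutation p = 0.0625), and no other call changed. Depth per library is unknown, so a missing peak does not show closed chromatin, and fold changes of members carry SE of 0.09 to 0.37.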
